A study of Mus musculus with 33 samples.

Results

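In libraries made from very little mRNA by DP-seq, 8 genes took a growing part of the counts as the input fell: Dicer1, Tln1, Egfr, Prss2, Trappc13, Prss43, Upk1b and Rapgefl1. They are 8 of the 21844 genes measured and were chosen by their share of the counts in a dilution series of a single RNA sample, which rose as the input fell. Their values in that series are therefore a description, and no test of them there is reported. Tests of these genes are given only for libraries the choice did not use. The label fitted 4 of them (Dicer1, Tln1, Egfr and Prss2) in both replicates at 1 pg, while Prss43, Upk1b and Rapgefl1 stood high mainly in 1 of the 2 libraries at 1 pg and Trappc13 had 0 counts there.

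The study measured mouse embryonic stem cells differentiating as embryoid bodies in serum-free medium, dispersed on day 2, treated until harvest on day 4 and sequenced in 33 libraries. In DP-seq the cDNA is amplified from chosen primers of heptamer length, and only stretches lying between matching primer sites are read. SMART-seq copies and amplifies whole cDNA, and standard RNA-seq fragments RNA without such primers.

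The dilution series came from cells given Activin A, a TGF-beta family ligand, at 3 ng/mL (AA3), with 2 technical replicates each at 1 pg, 10 pg, 50 pg, 100 pg, 1 ng and 10 ng of mRNA. Other DP-seq libraries held 50 pg of mRNA from cells given 100 ng/mL (AA100, 2 technical replicates) or 3 ng/mL (1 library), both made with the original set of 44 primers. SMART-seq libraries of 50 pg covered AA100 and AA3 with 2 technical replicates each, and standard RNA-seq of 20 ng covered AA100 (1 library) and AA3 (2 technical replicates). The remaining AA3 libraries were a paired-end DP-seq library of about 100 pg with a mean insert of 150 bp, and 1 library of about 500 pg for each of 3 primer sets meant to suppress ribosomal transcripts. A dose set of DP-seq libraries, whose labels give no mRNA amount, held AA100, AA15 (15 ng/mL, 2 technical replicates), AA3, SB (the receptor inhibitor SB-431542) and SFM (untreated control, 2 libraries, the second with yeast transcripts spiked in). Every AA15, dilution, standard, DP-seq and SMART-seq pair is labelled as technical replicates. Spreads and p-values below therefore measure technical spread and not differences between cultures.

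Library totals ran between 427556 and 30609013 counts, and the 2 libraries of 1 pg were the smallest, with 427556 and 448933. Genes with at least 1 count numbered 6490 and 6424 at 1 pg, 9474 and 9456 at 10 pg, and 13125 and 14597 at 10 ng. The summed level of 17 embryoid body, epiblast and streak markers was 1969 to 2290 CPM (counts scaled to a library total of 1000000) at 1 pg and 2826 to 2846 CPM at 10 ng, and 5 of them (Sox2, Utf1, Dnmt3b, Eomes and Sox17) had 0 counts at 1 pg. Values below are CPM of the library total unless a count is given, without correction for transcript length, so levels are compared between libraries and not between genes. Intervals are Wilson 95% intervals and speak to counting error alone, because copies made by amplification are not separate molecules.

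The 8 genes do unlike things. Dicer1 is the RNase that cuts microRNA precursors into mature microRNAs, and embryonic stem cells depend on it for normal differentiation. Tln1 encodes talin, the adaptor that couples integrins to actin, Egfr is the receptor for epidermal growth factor, and Rapgefl1 is a member of the exchange factor family that acts on Rap GTPases, the small GTPases that help to activate integrins through talin. Prss2 is a trypsinogen of the exocrine pancreas and Prss43 a serine protease known from mouse testis. Upk1b is a tetraspanin that joins the uroplakin plaques of the bladder lining, and Trappc13 is a subunit of the TRAPP vesicle-tethering complex.

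Dicer1 went furthest in counts. It took 104817 and 42120 CPM at 1 pg, 14951 and 21251 at 10 pg, 1796 and 1329 at 50 pg, 1737 and 2303 at 100 pg, 496 and 411 at 1 ng, and 230 and 218 at 10 ng. The replicates of neighbouring inputs did not overlap except between 50 pg and 100 pg, which were in the same range. At 1 pg it held more counts than any other gene in both libraries: 10.5% of all counts (95% interval 10.4 to 10.6) in replicate 1 and 4.21% (4.15 to 4.27) in replicate 2, and it was the second-ranked gene in both 10 pg libraries. Its mean share was 328-fold higher at 1 pg, 80.9-fold at 10 pg, 6.98-fold at 50 pg, 9.03-fold at 100 pg and 2.03-fold at 1 ng than at 10 ng. The files list a single Dicer1 transcript model, NM_148948.2.

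Tln1 followed the same course. Its share was 10909 and 5970 CPM at 1 pg, 2862 and 4167 at 10 pg, 267 and 227 at 50 pg, 348 and 463 at 100 pg, 47.5 and 37.4 at 1 ng, and 14.5 and 12.8 at 10 ng. Unlike for Dicer1, where these inputs overlapped, both 50 pg libraries lay below both 100 pg libraries, so that the rise was not a steady one. The mean at 1 pg was 619-fold, and that at 10 pg 258-fold, the mean at 10 ng.

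Egfr was less regular. It had 11133 and 9344 CPM at 1 pg, 1423 and 36.3 at 10 pg, 320 and 392 at 50 pg, 258 and 189 at 100 pg, 474 and 449 at 1 ng, and 20.3 and 34.7 at 10 ng. The libraries of 1 pg were the highest, but those of 10 pg were 39.2-fold apart (4006 and 115 counts), and replicate 2 at 10 pg was barely above the 10 ng libraries. The share at 1 ng was already 16.8-fold the share at 10 ng and lay above both the 50 pg and the 100 pg libraries.

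Prss2 was present in few reads. Its counts were 81 and 79 at 1 pg, 110 and 286 at 10 pg, 54 and 65 at 50 pg, 53 and 26 at 100 pg, 70 and 89 at 1 ng, and 0 and 4 at 10 ng. As a share these are 189 and 176 CPM at 1 pg, 39.1 and 90.2 at 10 pg, 9.35 and 9.67 at 50 pg, 8.76 and 4.30 at 100 pg, and 8.56 and 8.57 at 1 ng; the value at 10 ng was 0.387 in replicate 2. The share lay between 4.30 and 9.67 CPM from 50 pg to 1 ng and was lower at 10 ng. Pooled over replicates, the ratio of 1 pg to 10 ng was 613, with an exact 95% interval for counting error of 235 to 2278 that reflects the 4 counts at 10 ng.

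**Figure D1:**
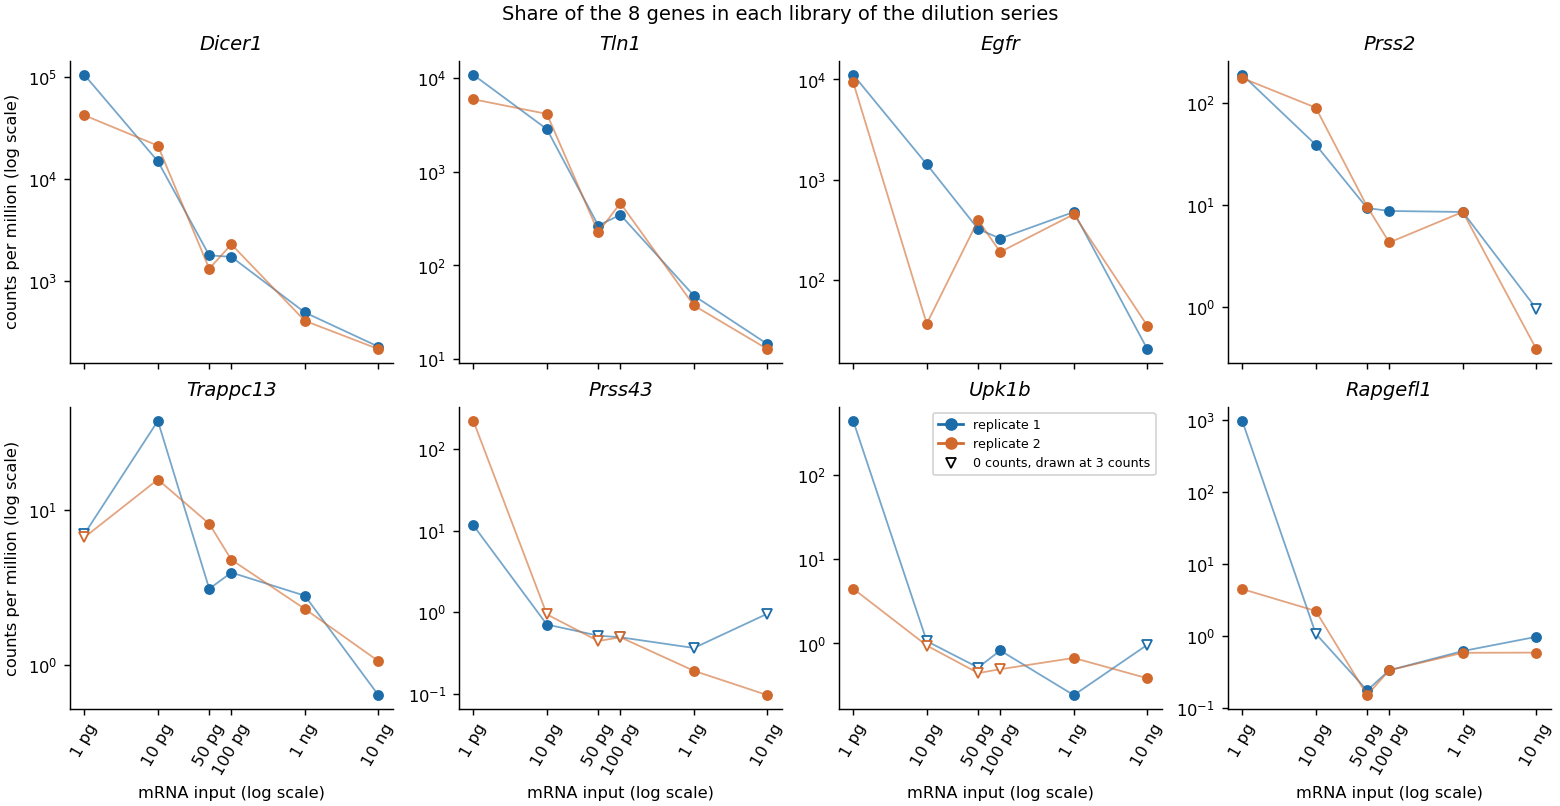
Share of each gene in CPM (log scale) against mRNA input (log scale), 1 panel per gene, with 1 point per library and a line joining the libraries of each replicate number; open triangles are libraries with 0 counts, drawn at the level of 3 counts. Dicer1 reached 104817 and 42120 CPM at 1 pg against 230 and 218 at 10 ng, while Upk1b and Rapgefl1 were high in replicate 1 at 1 pg and Trappc13 had 0 counts in both libraries of 1 pg.

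Upk1b and Rapgefl1 each depended on 1 library. Upk1b had 185 and 2 counts at 1 pg, 0 and 0 at 10 pg and at 50 pg, 5 and 0 at 100 pg, 2 and 7 at 1 ng, and 0 and 4 at 10 ng. Rapgefl1 had 417 and 2 counts at 1 pg, 0 and 7 at 10 pg, 1 and 1 at 50 pg, 2 and 2 at 100 pg, 5 and 6 at 1 ng, and 3 and 6 at 10 ng. In replicate 1 at 1 pg these counts are 433 CPM of Upk1b and 975 CPM of Rapgefl1, which are 97.1-fold and 219-fold the shares in replicate 2. In replicate 2 at 1 pg each gene had 2 counts, or 4.46 CPM, which as a share is above every library of larger input (at most 0.826 CPM for Upk1b and 2.21 CPM for Rapgefl1) but rests on those 2 counts.

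Prss43 showed the opposite replicate. It had 5 and 100 counts at 1 pg, 2 and 0 at 10 pg, 0 in all 4 libraries of 50 pg and 100 pg, 0 and 2 at 1 ng, and 0 and 1 at 10 ng. The library with 100 counts (223 CPM) stood 19.0-fold above its partner. The pooled ratio of 1 pg to 10 ng was 1610, with an exact interval of 283 to 64171, and rests on 1 count at 10 ng. The 3 genes high mainly in 1 library of 1 pg were thus not high in the same one.

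Trappc13 rose as the input fell to 10 pg and was then not seen. Its counts were 0 and 0 at 1 pg, 106 and 50 at 10 pg, 18 and 55 at 50 pg, 24 and 29 at 100 pg, 23 and 24 at 1 ng, and 2 and 11 at 10 ng. In CPM these are 37.7 and 15.8 at 10 pg, 3.12 and 8.18 at 50 pg, 3.97 and 4.79 at 100 pg, 2.81 and 2.31 at 1 ng, and 0.643 and 1.07 at 10 ng. The mean share was 31.3-fold higher at 10 pg than at 10 ng. At 1 pg, 0 counts allow a share of up to 7.02 CPM in replicate 1 and 6.68 CPM in replicate 2, each library taken alone, which is below both libraries of 10 pg.

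Together the 8 genes made up 12.8% and 5.78% of all counts at 1 pg, 1.93% and 2.56% at 10 pg, 0.240% and 0.197% at 50 pg, 0.236% and 0.296% at 100 pg, 0.103% and 0.0910% at 1 ng, and 0.0266% and 0.0268% at 10 ng. Most of that was Dicer1 at every input but 1 ng, where Egfr counts numbered 95.5 and 109 per 100 Dicer1 counts. The joint share at 1 pg was 14.5% on average with TMM-scaled totals, against 9.32% with library totals, since TMM scaling made the effective size of these libraries smaller.

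**Figure D2:**
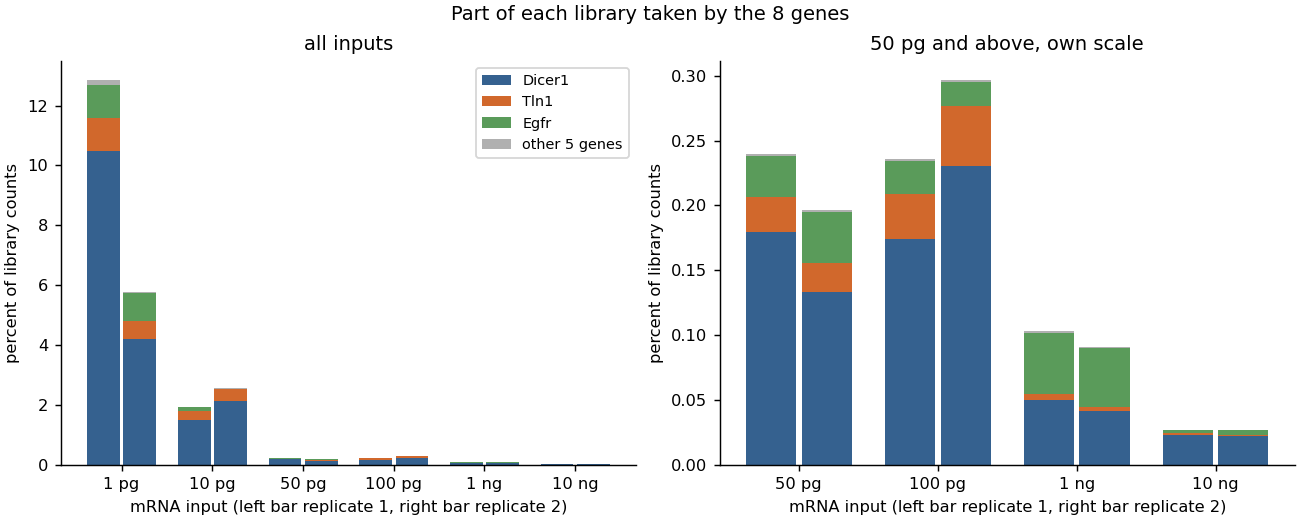
Percent of library counts taken by the 8 genes in each dilution library, stacked by gene, with 2 bars per input for the 2 technical replicates; the left panel shows all inputs and the right panel those of 50 pg and above on a scale of its own. The bars stand at 12.8% and 5.78% at 1 pg and below 0.3% at 50 pg and above, with Dicer1 the main part at 1 pg.

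The share above that at 10 ng was multiplied by the nominal mRNA input, which gives a product in fg. DP-seq reads only stretches between primer sites, so a share of counts is not a share of mass. The product is therefore not a measured mass. For Dicer1 this product was 73.2, 179, 66.9, 180 and 230 fg at 1 pg, 10 pg, 50 pg, 100 pg and 1 ng. For Tln1 it was 8.43, 35.0, 11.7, 39.2 and 28.8 fg at the same inputs. Over these inputs the product lay between 66.9 and 230 fg for Dicer1 and between 8.43 and 39.2 fg for Tln1. For Egfr it was 10.2, 7.02, 16.4 and 19.6 fg up to 100 pg and 434 fg at 1 ng. Its value at 10 pg rests on replicate 1, since replicate 2 had 36.3 CPM there, against 20.3 and 34.7 CPM at 10 ng. For Prss2 it was 0.183, 0.645, 0.466 and 0.633 fg up to 100 pg and 8.37 fg at 1 ng, far above the smaller inputs. The subtraction sets each product to 0 at 10 ng. Without the subtraction, the Dicer1 product was 73.5 fg at 1 pg and 2238 fg at 10 ng. That of Tln1 was 8.44 fg at 1 pg and 136 fg at 10 ng. The product takes the labelled inputs at face value, and what lies behind it was not tested.

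Few other genes moved as far. Of 10817 genes that passed the filter on low counts, 357 had a mean share at least 10-fold higher at 1 pg than at 10 ng, which is 3.3%, and 66 (0.61%) did so at 10 pg. Ordered by that fold, Prss2, Tln1, Dicer1, Trappc13 and Egfr came 1st, 2nd, 4th, 12th and 16th at 10 pg. Prss43 came 102nd and Rapgefl1 2066th there, and Upk1b had 0 counts. At 1 pg, Prss43, Upk1b, Prss2, Rapgefl1, Tln1, Egfr and Dicer1 came 1st, 4th, 5th, 7th, 8th, 14th and 20th. These places describe how the genes were chosen and carry no further weight.

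Across all genes tested in the dilution series, 8.96% were called higher and 24.9% called in either direction at 1 pg against 10 ng. At 10 pg 3.53% were higher, and at 50 pg 0.924% were higher and 0.157% lower. Over all inputs 9.92% had a trend to higher shares at lower input past the threshold and 7.49% a trend to lower ones. These shares are the background for the pathway partners described later, and no calls of the 8 genes are set against them. The threshold throughout is a Benjamini-Hochberg adjusted p of 0.05 in edgeR's quasi-likelihood test. Of all calls at 10 pg 42.2% were higher with TMM scaling, 31.1% with RLE and 12.8% with library totals alone; at 1 pg the parts were 36%, 46.9% and 12.8%. At 50 pg 85.5% of calls were higher with edgeR and 39.8% with DESeq2.

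The libraries that the choice did not use gave other levels at the same nominal input. The labels do not say whether they were prepared together with the dilution series or from the same RNA, so preparation and library set cannot be told apart in what follows. In the separate 50 pg DP-seq libraries, Dicer1 had 600 and 308 CPM in AA100 and 386 CPM in AA3, against 1796 and 1329 CPM in the dilution libraries of 50 pg. Tln1 had 121 and 35.0 CPM in AA100 and 57.3 CPM in AA3, against 267 and 227 CPM in the dilution libraries. Egfr had 19.5 and 12.3 CPM in AA100 and 7.02 CPM in AA3, against 320 and 392 CPM in the dilution libraries. For each of these 3 genes every dilution library of 50 pg was above every other 50 pg DP-seq library, AA3 included. Prss2 had 9 and 6 counts in AA100 and 5 counts in AA3, against 54 and 65 counts in the smaller dilution libraries. The other members did not all lie lower. Rapgefl1 had 36 and 53 counts in AA100 and 1 in AA3, against 1 and 1 in the dilution libraries. Prss43 had 5 and 0 counts in AA100 and 15 in AA3, against 0 and 0. Trappc13 had 3.51 and 4.41 CPM in AA100 and 0.281 CPM in AA3, against 3.12 and 8.18 CPM. Upk1b had 0 counts in all of these libraries.

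The paired-end library, of about 100 pg and labelled AA3 like the dilution series, was also low. Dicer1 had 300 CPM there (95% interval 286 to 314), against 1737 and 2303 CPM in the dilution libraries of 100 pg. Tln1 had 13 counts, or 2.22 CPM (1.30 to 3.80), against 348 and 463 CPM, and Egfr had 90 counts, or 15.4 CPM (12.5 to 18.9), against 258 and 189 CPM. All 3 lay near their levels in the dose set and below every dilution library of 100 pg. Prss2 and Prss43 had 0 counts in it, which allows up to 0.512 CPM, and Upk1b, Trappc13 and Rapgefl1 had 7, 6 and 1 counts.

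With the 3 primer sets meant to suppress ribosomal transcripts, at about 500 pg, the members did not keep a common order. Dicer1 had 643 CPM (95% interval 623 to 663) with set 1, 336 (321 to 353) with set 2 and 138 (129 to 149) with set 3. Tln1 had 24.2 (20.6 to 28.4), 2.19 (1.22 to 3.92) and 3.72 (2.41 to 5.75) CPM with the same sets, and Egfr had 5.17 (3.64 to 7.34), 8.57 (6.36 to 11.5) and 2.23 (1.28 to 3.90) CPM. Trappc13 had 2.50 (1.52 to 4.13), 12.2 (9.46 to 15.6) and 0.930 (0.397 to 2.18) CPM. Set 1 thus gave the highest Dicer1 and Tln1 and set 2 the highest Egfr and Trappc13. Prss2 had 0 counts with any of the sets, and Rapgefl1, Prss43 and Upk1b had at most 14, 5 and 1 counts. Each set has 1 library, so these differences have no replicate check, and the primer set cannot be told apart from the library.

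**Figure D3:**
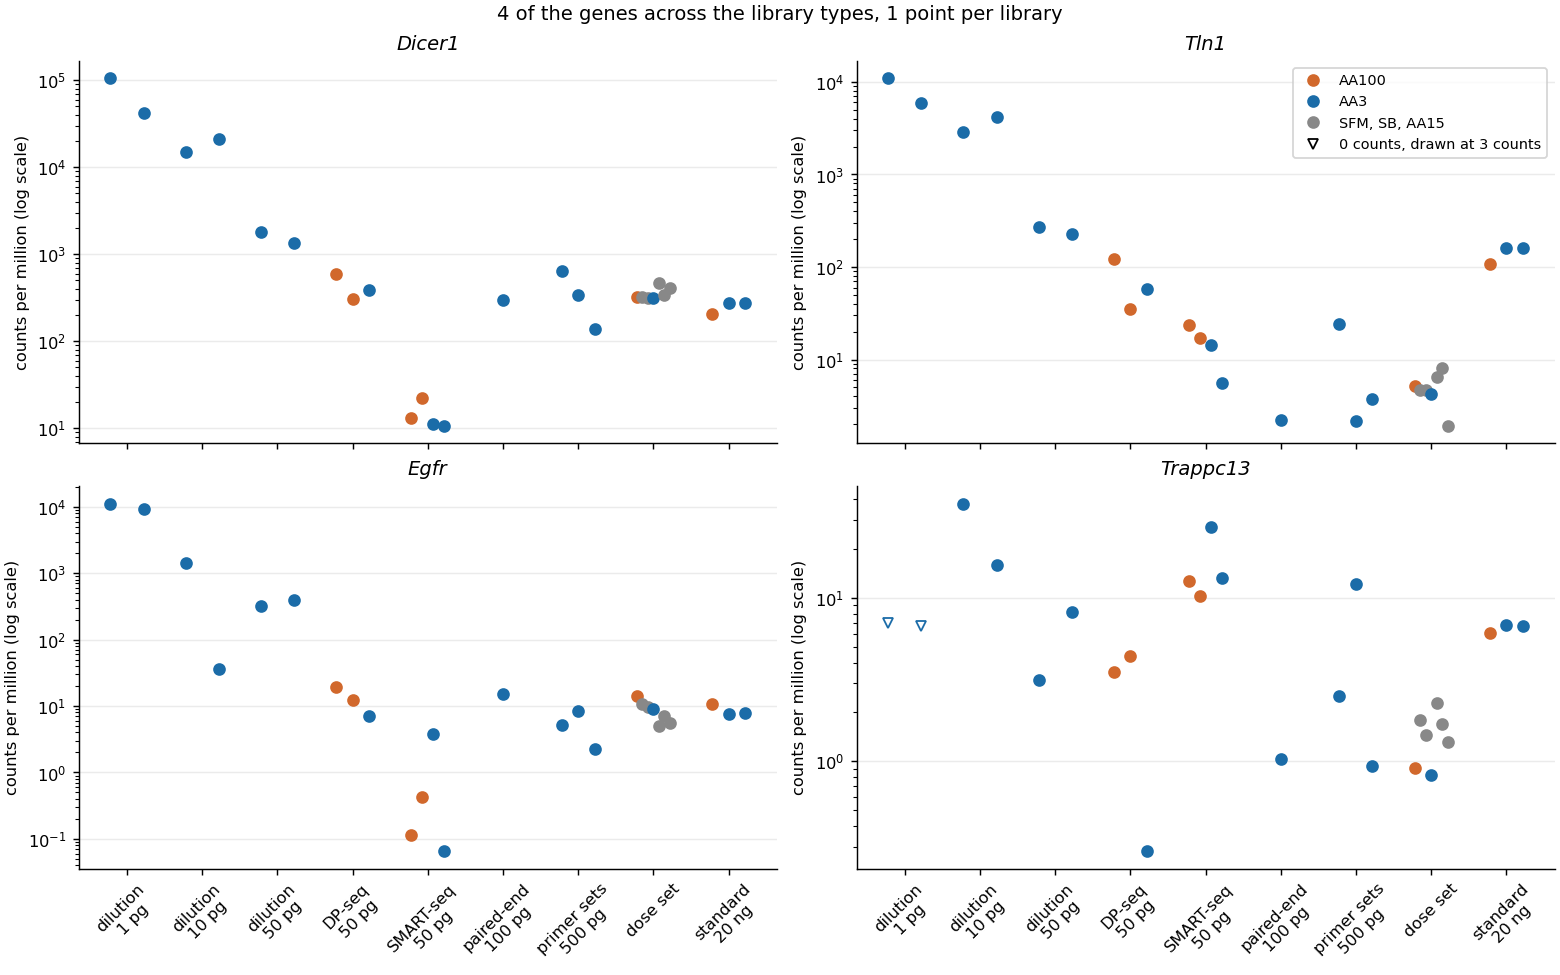
CPM (log scale) of Dicer1, Tln1, Egfr and Trappc13 by library type, 1 point per library, colored by Activin A dose, with libraries of 0 counts drawn as open triangles at the level of 3 counts. Dicer1 in the separate 50 pg DP-seq libraries (308 to 600 CPM) lay below the dilution libraries of 50 pg (1329 and 1796 CPM) and far above SMART-seq (10.6 to 22.5 CPM).

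Standard RNA-seq of 20 ng gave a level measured without heptamer primers. Dicer1 had 208 CPM in AA100 and 277 and 273 CPM in AA3. Tln1 had 109 CPM in AA100 and 161 and 160 CPM in AA3, above its level of 14.5 and 12.8 CPM in DP-seq of 10 ng. Egfr had 10.8 CPM in AA100 and 7.64 and 7.78 CPM in AA3. Dicer1 was thus near its DP-seq level at 10 ng, and Tln1 was not. Prss2 and Upk1b had 0 counts in the 3 libraries, Prss43 had 1 count in each, Trappc13 had 6.06 to 6.80 CPM and Rapgefl1 2.88 to 5.29 CPM.

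Between 50 pg DP-seq and 20 ng standard RNA-seq, 7 members passed the filter on low counts, all but Prss2. Upk1b passed only through 72 counts in 1 SMART-seq library and had 0 counts in DP-seq and standard RNA-seq. It counts among the 7 in each comparison of these methods but has no usable test in any. Prss43, also among the 7, passed only through 15 counts (1.40 CPM) in the AA3 DP-seq library. It had at most 5 counts in any other library of these methods. Dicer1 was higher in DP-seq by 1.61 ± 0.31 (SE) on the log2 scale (edgeR adjusted p = 0.00557), and Trappc13 was lower by 1.79 ± 0.50, a log2 change of -1.79 (adjusted p = 0.0261). Among all genes tested 37.3% were called, 16.9% higher and 20.5% lower, and the median log2 change was -0.39 (-1.19 with library totals alone), so 1 of 7 in each direction is close to what the whole table shows. Tln1 (-0.18 ± 0.53, adjusted p = 0.822) and Egfr (1.01 ± 1.18, adjusted p = 0.537) did not pass the threshold. The call for Dicer1 was lost with library totals alone (0.81, adjusted p = 0.0588) and without the AA100 standard library (1.31, adjusted p = 0.0566). That for Trappc13 was lost without either AA3 standard library (adjusted p = 0.0797 each) and turned to 0.17 (adjusted p = 0.882) without the AA3 DP-seq library, in which the gene had 3 counts.

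SMART-seq of 50 pg departed from standard RNA-seq in the other direction for Dicer1. It had 13.0 and 22.5 CPM in AA100 and 11.1 and 10.6 CPM in AA3, and was lower than in standard RNA-seq (log2 change -2.63 ± 0.28, edgeR adjusted p = 0.000154). Tln1 had 23.6 and 17.1 CPM in AA100 and 14.3 and 5.59 CPM in AA3, and was lower too (-1.74 ± 0.48, adjusted p = 0.0190). Trappc13 had 12.7 and 10.2 CPM in AA100 and 26.9 and 13.2 CPM in AA3, and was higher (2.71 ± 0.44, adjusted p = 0.00153). Egfr varied most between replicates, with 0.116 and 0.423 CPM in AA100 and 3.83 and 0.0653 CPM in AA3, and did not pass the threshold (-2.16 ± 1.08, adjusted p = 0.136). Of the 7 members tested, 1 was higher and 2 were lower, where 49% of all genes were called, 24.4% higher and 24.6% lower, with a median log2 change of -0.29 (-1.75 with library totals alone). Upk1b had 72 counts in replicate 1 of AA100 and 0 counts in the other 3 libraries. The call for Tln1 was lost without replicate 2 of AA3 (adjusted p = 0.0546) or replicate 2 of AA100 (adjusted p = 0.0623); Egfr passed with library totals alone (-3.63, adjusted p = 0.0243), with DESeq2 (-2.24, adjusted p = 0.0477) and without replicate 1 of AA3 (-4.56, adjusted p = 0.00490).

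Set directly against SMART-seq at the same 50 pg, DP-seq gave more Dicer1 (log2 change 4.24 ± 0.29, edgeR adjusted p = 1.16e-05), more Egfr (3.17 ± 1.11, adjusted p = 0.0444) and more Tln1 (1.56 ± 0.48, adjusted p = 0.0271), and less Trappc13 (-4.50 ± 0.53, adjusted p = 0.000210). For each of these 4 genes no DP-seq library overlapped any SMART-seq library. That is 3 of 7 members called higher and 1 called lower, where 52.1% of all genes were called, 23.7% higher and 28.4% lower. The calls for Dicer1 and Trappc13 held without any 1 of the 10 libraries. The call for Tln1 was lost without any of 5 libraries (DP-seq AA3 or replicate 1 of AA100, SMART-seq replicate 2 of AA3 or either of AA100; adjusted p = 0.0565 to 0.117). That for Egfr was lost without any of 6 libraries (either AA3 standard, either AA100 DP-seq or either AA100 SMART-seq; adjusted p = 0.0622 to 0.119) and with no filter on low counts (adjusted p = 0.0527).

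Against the DP-seq libraries of the dose set at the same doses, Tln1 alone of the 8 members tested passed the threshold in 50 pg DP-seq. It had 121 and 35.0 CPM in AA100 and 57.3 CPM in AA3, against 5.18 CPM in AA100 and 4.20 CPM in AA3 of the dose set (log2 change 3.79 ± 0.61, edgeR adjusted p = 0.00627). Of all genes tested, 27.2% were called, 12.4% higher and 14.8% lower. Dicer1 had 324 CPM in AA100 and 316 CPM in AA3 of the dose set and did not pass (0.34 ± 0.30, adjusted p = 0.448). Its log2 change was 0.55 without replicate 2 of 50 pg AA100, a fit in which the AA15 pair alone sets the spread. Egfr had 14.0 and 9.10 CPM there and did not pass either (-0.15 ± 0.35, adjusted p = 0.787). Prss43 counted among the 8 tested only through its 15 counts in the AA3 library of 50 pg. Mean Tln1 was higher in 50 pg DP-seq in every fit that left out 1 library, by 3.18 to 4.12 on the log2 scale. The mRNA amount is not labelled for the dose set, so input and set of libraries cannot be told apart in this comparison.

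Tln1 and Dicer1 kept a ratio that differed by library type. In the dilution series there were 10.4 and 14.2 Tln1 counts per 100 Dicer1 counts at 1 pg, 19.1 and 19.6 at 10 pg, 14.9 and 17.1 at 50 pg, 20.0 and 20.1 at 100 pg, 9.58 and 9.08 at 1 ng, and 6.29 and 5.87 at 10 ng. The ratio thus moved between 10.4 and 20.1 over the inputs of 1 pg to 100 pg, while the share of both genes moved far more. It was 11.4 to 20.1 in the separate 50 pg DP-seq libraries, a like range although their shares of both genes were lower. In the paired-end library of about 100 pg it was 0.741, far below the 20.0 and 20.1 of the dilution libraries of 100 pg. In the dose set it was 0.473 to 2.40, with the primer sets 0.651 to 3.76, in SMART-seq 52.6 to 182 and in standard RNA-seq 52.2 to 58.5. These ranges are given as a description, since the dilution libraries entered the choice of the genes.

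**Figure D4:**
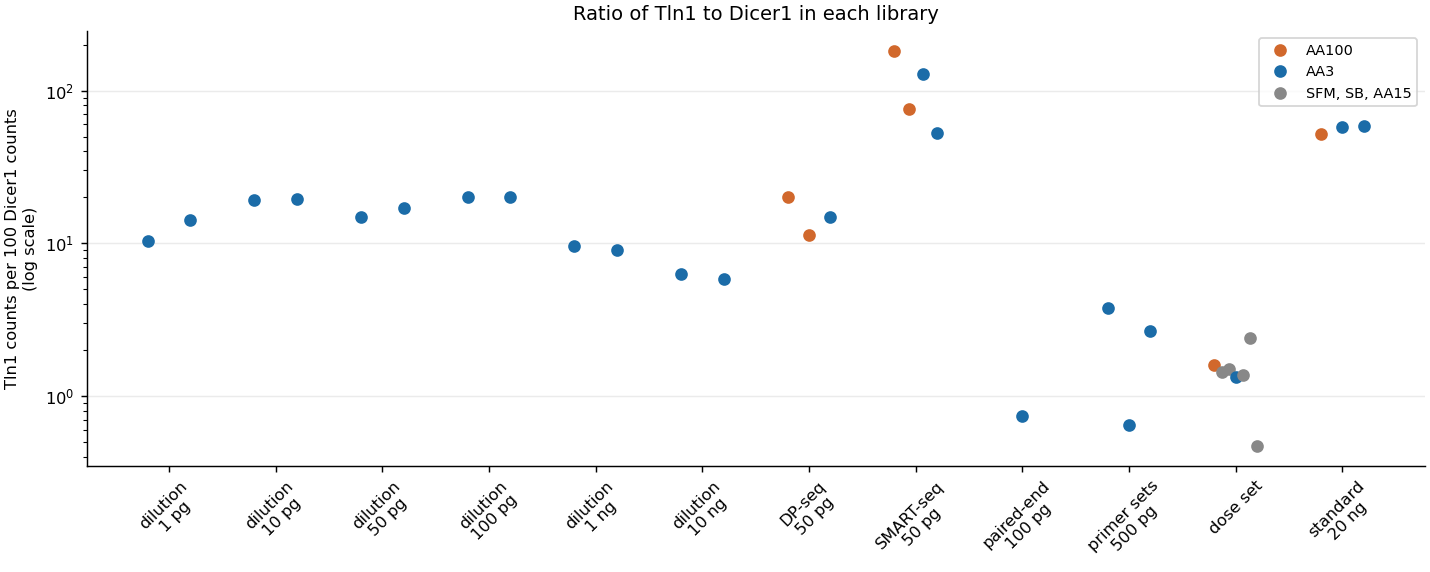
Tln1 counts per 100 Dicer1 counts (log scale) in each library, by library type and, for the dilution series, by mRNA input, colored by Activin A dose. The dilution libraries of 1 pg to 100 pg and the separate 50 pg DP-seq libraries lie between 10.4 and 20.1, standard RNA-seq between 52.2 and 58.5, the dose set between 0.473 and 2.40 and the paired-end library at 0.741.

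The dose of Activin A did not move the members past the threshold. In AA100 against AA3, averaged over standard RNA-seq, DP-seq and SMART-seq, 0 of the 7 members tested were called by edgeR. Upk1b, among the 7, had no usable test, and Prss43 passed the filter only through the AA3 DP-seq library. Of all genes 7.68% were called, 3.89% higher and 3.79% lower. Trappc13 was the 1 member below an unadjusted p of 0.05 in that edgeR fit (log2 change 0.89 ± 0.37, unadjusted p = 0.0430, adjusted p = 0.206). Along the doses of the dose set, from SFM to AA100, 0 of the 7 members tested (Prss43 did not pass the filter) were called, where 0.149% of all genes rose and 0.248% fell. Egfr was the 1 gene below an unadjusted p of 0.05 there, with 7.08 and 5.52 CPM in SFM, 9.10 in AA3, 10.6 and 9.66 in AA15 and 14.0 in AA100 (log2 change per dose step 0.32 ± 0.12, unadjusted p = 0.0312, adjusted p = 0.364). DESeq2 called 0 members in either comparison as well. In such bulk samples fewer cells of a type and less RNA per cell cannot be told apart, and a p that misses the threshold does not show that the levels were equal.

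The split of Egfr reads between transcript models differed between libraries, with the long model holding most of them in each library. The files list a long model, NM_207655.2, and a short one, NM_007912.4. The GENCODE transcripts matched to these identifiers have 10208 and 2943 bases. In the dilution libraries of 1 pg to 1 ng the short model held 6 of 28811 Egfr counts, or 0.0208% (95% interval 0.00954 to 0.0454), and at 10 ng 0 of 63 and 4 of 358. In the dose set it held 137 of 925 counts, or 14.8% (12.7 to 17.2), with 18.0% in AA100 and 21% in AA3, and 0 of 72 in replicate 2 of SFM. In the separate 50 pg DP-seq libraries it held 3 of 462 and in standard RNA-seq 3 of 275. The reads that grew at low input were thus assigned to the long model, and how the authors divided reads between models is not known.

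Transcript length did not unite the members. The GENCODE transcripts matched to Dicer1, Egfr (long) and Tln1 have 9851, 10208 and 8393 bases, longer than 98.4%, 98.6% and 97.2% of all those matched. Prss2, with 815 bases, is longer than only 7.69% of them, and Upk1b, Prss43 and Rapgefl1 have 1894, 2327 and 4855 bases. GC content of the matched transcripts went from 38.2% for NR_003546.1, the non-coding model that holds most Trappc13 counts, to 57.6% for Rapgefl1. Among 20-base words of the reference transcripts (GENCODE vM21), searched on the transcript strand, a single word occurred in transcripts of 2 different members, Dicer1 on chromosome 12 and Egfr on chromosome 11. It is shown, all in lower case, because it is the only such stretch between the 8 genes:
Dicer1 and Egfr: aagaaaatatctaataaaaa
The word is made mostly of A and T, and no role is drawn from it. For Prss2, 41% of its words also occur in other genes, 251 of them in Try4, another trypsinogen, so counts of these paralogs are uncertain; Prss1, Try4, Try5 and Try10 had 0 counts in every dilution library. For Upk1b no word was shared with another gene.

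Most markers of the tissues in which Prss2, Prss43 and Upk1b are best known had 0 counts in the shallow 1 pg libraries. Spink1 was the main exception. At 10 ng, where these 3 genes were low, 14 of 19 acinar and 7 of 12 testis markers had 0 counts as well. The same held for 2 of 9 urothelium markers. Of 19 pancreatic acinar markers 18 had 0 counts in both 1 pg libraries, and the summed level of the list was 4.46 to 117 CPM at 1 pg and 55.0 to 68.9 CPM at 10 ng, nearly all of it Spink1, a trypsin inhibitor. Spink1 had 117 and 4.46 CPM at 1 pg and 81.3 and 130 CPM at 10 pg, against 53.4 and 67.9 CPM at 10 ng. All 12 testis germ cell markers had 0 counts at 1 pg, against a sum of 2.25 to 6.68 CPM at 10 ng. Of 9 markers of urothelium, the bladder lining, 8 had 0 counts at 1 pg, with a sum of 2.23 to 9.36 CPM, against 27.3 to 42.4 CPM at 10 ng. Suprabasal epidermis was listed besides the tissues of these 3 genes. Of its 6 markers 5 had 0 counts at 1 pg and 2 at 10 ng. Their sum was 4.46 to 32.7 CPM at 1 pg, against 12.2 to 13.9 CPM at 10 ng. Whether RNA from another source took part in the rise was not tested.

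The pathway partners of the members were called about as often as other genes. At 10 pg against 10 ng edgeR called 6 of the 69 tested partners, where 8.37% of all genes were called. Below an unadjusted p of 0.05 were 20 of the 69, against 3033 of all 10817 genes. DESeq2 called 21 of the 69, against 2948 of the 10817. Of 15 tested genes of integrin and talin adhesion, 1 rose and 2 fell at 10 pg against 10 ng: Tln2, the second talin, had 7 and 0 counts at 10 pg, against 125 and 476 counts at 10 ng (log2 change -4.58 ± 0.95, edgeR adjusted p = 0.0248), and Zyx, a focal adhesion protein, had 10.3 and 5.05 CPM at 10 pg, against 46.9 and 50.6 CPM at 10 ng (-2.10 ± 0.52, adjusted p = 0.0402). Of 12 genes of microRNA processing 0 rose and 1 fell: Lin28a, which blocks let-7 maturation, had 304 and 229 CPM at 10 pg, against 1358 and 1373 CPM at 10 ng (-1.79 ± 0.25, adjusted p = 0.00658). None of the 12 tested genes of the EGF receptor family, its ligands and adaptors, and none of the 3 serine proteases and their inhibitors that passed the filter, was called in either direction by edgeR at 10 pg; 1 EGF receptor gene and 0 proteases were below an unadjusted p of 0.05, and DESeq2 also called 1 and 0. Among all genes 3.53% rose and 4.83% fell.

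Rap1a, a Rap GTPase in both the adhesion list and the Rap list, had 227 and 323 CPM at 10 pg, against 113 and 151 CPM at 10 ng (log2 change 1.63 ± 0.39, edgeR adjusted p = 0.0357), and was the 1 gene called of 10 in the Rap list. Tspan7, a tetraspanin, had 837 and 1123 CPM at 10 pg, against 427 and 487 CPM at 10 ng (1.67 ± 0.39, adjusted p = 0.0358), and was the 1 called of 7 uroplakins and tetraspanins. Trappc9, another TRAPP subunit, had 41 and 128 counts at 10 pg, against 5 and 23 counts at 10 ng (4.36 ± 1.09, adjusted p = 0.0468), 0 and 0 counts at 1 pg, and was the 1 called of 12 TRAPP genes. Trappc9 and Trappc13 thus both peaked at 10 pg with 0 counts at 1 pg. The median log2 change at 10 pg was -0.90 for the adhesion list, -0.30 for microRNA processing and 1.26 for uroplakins and tetraspanins, against -0.12 for all genes. With library totals alone the calls for Rap1a (adjusted p = 0.0813), Tspan7 (0.101) and Trappc9 (0.0528) were lost, which are all 3 that rose, and with a replicate block those for Zyx (adjusted p = 0.0591), Rap1a (0.0650) and Trappc9 (0.0600). The calls also depend on single libraries: of 12 fits that each left out 1 library, Lin28a stayed called in 10, Trappc9 in 5, Tln2 and Zyx in 4, and Tspan7 and Rap1a in 3, with the direction kept in each.

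**Figure D5:**
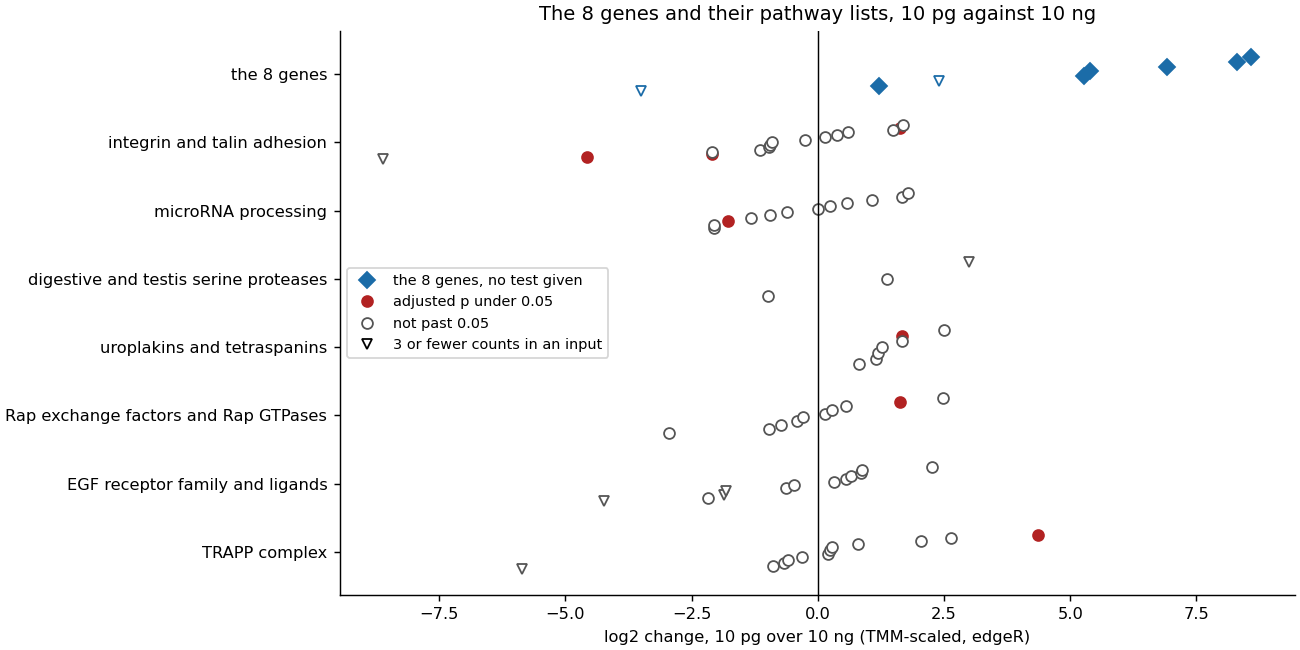
Log2 change between 10 pg and 10 ng (TMM-scaled, edgeR) for the 8 genes (diamonds, no test given) and for each tested gene of 7 lists of pathway partners, with filled circles for an adjusted p under 0.05, open circles for the others and open triangles for genes with 3 or fewer counts in an input, whose value depends on the fit. Tln1 lies at 8.59 and Dicer1 at 6.91, while the genes called among the partners lie between -4.58 (Tln2) and 4.36 (Trappc9).

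At 50 pg against 10 ng edgeR called 0 of the 69 tested genes of the 7 lists, where 1.08% of all genes were called in either direction. Below an unadjusted p of 0.05 were 9 of the 69, against 1497 of all 10817 genes. DESeq2 called 8 of the 69, against 1348 of the 10817. At 1 pg 2 adhesion genes rose and 2 fell of 15, 1 rose and 2 fell of 12 in microRNA processing, and 4 of 12 TRAPP genes fell with none higher, where 8.96% of all genes rose and 15.9% fell. In DP-seq against SMART-seq at 50 pg, 53 of 83 tested partners were called, where 52.1% of all genes were (23.7% higher and 28.4% lower). By list, 7 of 15 microRNA processing genes were higher and 2 lower, 9 of 16 adhesion genes higher and 3 lower, 6 of 12 EGF receptor genes higher and 1 lower, and 2 of 12 TRAPP genes higher and 8 lower. Ago2, the slicer of the microRNA pathway, had 72.1 and 55.0 CPM in AA100 and 97.0 CPM in AA3 of DP-seq, against 7.88 and 5.40 CPM in AA100 and 4.96 and 1.08 CPM in AA3 of SMART-seq (log2 change 3.46 ± 0.45, edgeR adjusted p = 0.000428). Trappc1 had 5.26 and 3.81 CPM in AA100 and 1.59 CPM in AA3 of DP-seq, against 289 and 313 CPM in AA100 and 315 and 338 CPM in AA3 of SMART-seq (-7.54 ± 0.20, adjusted p = 7.44e-08). Vcl, vinculin, had 443 to 458 CPM in DP-seq and 26.5 to 41.8 CPM in SMART-seq (3.18 ± 0.15, adjusted p = 1.47e-06). No DP-seq library overlapped a SMART-seq library for these 3 genes.

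The genes whose profile over the 12 dilution libraries was most like the mean profile of the members (Pearson r of log2(CPM + 1), as a description) were Ypel1, Ctla4, Vps13b, Cdc27, Eny2, Ypel5, Hmgxb4, Mtx2, Zcchc9 and Rbm26, with r of 0.928 to 0.963. Their mean share was 4.48-fold (Mtx2) to 63.9-fold (Ctla4) higher at 1 pg than at 10 ng. Cdc27, a subunit of the anaphase-promoting complex, had mean shares of 1667, 909, 450, 472, 306 and 243 CPM at 1 pg, 10 pg, 50 pg, 100 pg, 1 ng and 10 ng. Ctla4, an immune checkpoint receptor of T cells, had 11 and 6 counts at 1 pg and is listed at 0 in the AA3 standard libraries. Of the members, Dicer1 had an r of 0.96 with the mean profile and Trappc13 one of -0.09. The libraries share a treatment label and are technical replicates within each input. The 1 pg libraries are the shallowest, so the likeness has few independent points behind it.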

How the data were processed

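Per the file headers, each library's deposited table has one column of unique reads for RefSeq transcripts, used as counts; 8 of the 33 tables hold values that are not whole, 15 in all and each within 0.01 of a whole number, and were treated as estimated counts of the authors and rounded. Per the labels' protocols, mRNA was isolated from total RNA and copied to single-stranded cDNA, and SMART-seq cDNA was amplified with 13 cycles. For the aligner, counting rule, RefSeq release, genome build and strand use the record is: not given in the sources used here. Positions are therefore left out, and near-identical copies may be undercounted where reads with several matches were dropped.

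A RefSeq table gave symbols to 25853 of 26566 transcripts and GENCODE to 154 more, 559 kept their identifier, and sums over transcripts gave 21844 genes. Tests used edgeR 4.0.16 in R 4.3.3, with filterByExpr at a minimum count of 10 and a minimum total of 15. TMM scaling, robust quasi-likelihood fits and Benjamini-Hochberg at 0.05 followed, fitted across all genes of a set. The sets were the 12 dilution libraries, the 10 libraries of the method set, and 6 libraries of the dose set, without SB. A further set held the 50 pg DP-seq libraries with AA3, AA15 and AA100 of the dose set. Lone libraries take their spread from the replicated groups. DESeq2 1.42.0 was an alternative. The fits were tested on simulated counts. Values after ± are standard errors. Python 3.11.15 with scipy 1.17.1 and matplotlib 3.10.9 gave shares, Wilson and exact 95% intervals and figures; a count of 0 allows 3 counts.

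The 8 genes, the 7 pathway lists and the marker lists were chosen with earlier results of these data known. Named besides the 8 are, per list, up to 2 genes with the largest change at 10 pg among those past the threshold (a selection in the other comparisons), and the 10 genes most like the members. Replicate numbers did not pair the libraries.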

Additional observations from a re-analysis of the deposited data

Results flagged for a closer look

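The shares of 4 genes differed between DP-seq and SMART-seq of 50 pg, by a direct test in edgeR over 10 libraries. Against standard RNA-seq, Egfr passed the threshold in neither method and Tln1 in SMART-seq alone. The log2 difference, DP-seq over SMART-seq, was 4.24 for Dicer1, 3.17 for Egfr, 1.56 for Tln1 and -4.50 for Trappc13. That is 4 of 7 members tested, close to the 52.1% of all genes called in the same comparison. Upk1b, among the 7, had no usable test, and Prss43 passed the filter only through the AA3 DP-seq library. The call for Tln1 was lost without any of 5 libraries and that for Egfr without any of 6. No group has 4 or more libraries, so single libraries could not be screened as outliers.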

How the results depend on the processing

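Counts of calls, in genes past the threshold, were within 1.5 times the reported ones under RLE scaling in every comparison and departed as follows. DESeq2 gave 3125 for the dilution trend (reported 1883), 1348 for 50 pg (117), 2948 for 10 pg (905), 2090 for AA100 against AA3 (1081) and 497 for the dose trend (48). Library totals alone gave 60 at 50 pg and 1388 at 10 pg. With them the part of calls that were higher fell to 12.8% at 1 pg and at 10 pg (reported 36% and 42.2%), 60% at 50 pg (85.5%), 18.5% for the trend (57.0%), 20.3% for DP-seq and 19.6% for SMART-seq against standard RNA-seq (45.2% and 49.9%), and was 60.3% for DP-seq against SMART-seq (45.5%). With DESeq2 it was 39.8% at 50 pg and 52.1% at 1 pg. RLE moved it to 31.1% at 10 pg and 46.9% at 1 pg. The median log2 change of all genes was -0.12 at 10 pg and -1.43 at 1 pg with TMM, and -0.69 and -2.42 with library totals. The mean joint share of the 8 genes at 1 pg was 14.5% of TMM-scaled totals (reported 9.32% of library totals).

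With a replicate block the counts were 66 at 50 pg, 397 at 10 pg and 0 for the dose trend, where 1305 genes were below an unadjusted p of 0.05; replicate numbers did not pair libraries (r of deviations -0.03 to 0.03 in the dilution series, -0.20 between SFM and AA15). Crossing the numbers of SFM and AA15, an alternative chosen after seeing the data, gave 40 calls.

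Leaving out 1 library at a time gave 1204 to 2053 calls for the dilution trend (lowest without either 1 ng library, and 1239 without replicate 2 of 10 ng). It gave 12 to 1506 at 50 pg and 33 to 3231 at 10 pg, lowest without either 10 ng library and highest without either 1 pg library, with every other omission also over 1.5 times away. At 1 pg it gave 923 to 3921 (low without either 10 ng or either 1 ng library). It gave 3373 to 5786 for DP-seq against standard RNA-seq (low without standard AA100 or DP-seq AA3), 388 to 1332 for AA100 against AA3 (low without either AA3 standard library or the AA3 DP-seq library), 1723 to 7367 for DP-seq against the dose set (low without AA3 or AA100 of the dose set or 50 pg AA3, high without either 50 pg AA100) and 0 to 693 for the dose trend (high without the spiked SFM library, 2 without the other SFM library and 0 without any other). Where a lone library was left out, the contrast rests on the other dose. Without either 50 pg AA100 library, the AA15 pair alone sets the spread against the dose set.

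Members called went to 1 to 2 of 7 for DP-seq against standard RNA-seq (1 with library totals alone), 2 to 4 for DP-seq against SMART-seq (2 without replicate 1 of DP-seq AA100 or either SMART-seq AA100), and 1 to 4 for DP-seq against the dose set (2 and 4 without replicates 1 and 2 of 50 pg AA100, 2 with no filter). Directions that turned, none of them past the threshold after turning, were in DP-seq against standard RNA-seq Tln1 (-0.78 to 0.32) and Trappc13 (-3.74 to 0.17), and against the dose set Egfr (-0.45 to 0.13) and Trappc13 (-1.60 to 2.06, reported 0.23). The causes were not tested. Of the 10 genes most like the members, 9 were kept with a pseudocount of 10 and 3 with Spearman's correlation. Depth limits the 1 pg libraries most, where 3 counts are 7.02 and 6.68 CPM.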
